A study of Mus musculus with 6 samples.

Results

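Transcripts of 8 transcription factor genes, from families with members that direct osteoclast formation, were followed in mouse macrophages with and without RKIP. The genes were Mitf, Tfe3, Tfeb and Tfec of the microphthalmia (MiT) family, and Nfatc1, Nfatc2, Nfatc3 and Nfat5 of the NFAT family. They were taken by gene name from the 27458 genes of a deposited table, in which each name was found once, and all 8 were among the 11636 genes whose mean reached 1 FPKM (fragments per kilobase of transcript, scaled to the size of the library) that were tested. Primary bone marrow macrophages were compared in 2 groups, 3 libraries labelled WT and 3 labelled RKIP KO, all from cells treated with macrophage colony-stimulating factor (M-CSF), the growth factor on which these cells depend. RKIP (Raf kinase inhibitor protein, encoded by Pebp1) binds Raf kinases, and the study asked how it acts in macrophage differentiation. The knockout is RKIP-/- in the series' design text. The mouse strain, the age of the animals and the length of the culture were not given in the sources used here, nor was it stated that the libraries came from separate animals, so a p-value here reflects only how far these libraries spread, a spread that may be technical.

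MiT proteins are basic helix-loop-helix leucine zipper factors that bind E-box DNA as homodimers or as heterodimers with each other. In osteoclasts Mitf and Tfe3 drive genes of bone resorption, and throughout the body Tfeb, Tfe3 and Mitf drive lysosomal genes, held in the cytoplasm while the nutrient-sensing kinase mTOR phosphorylates them. NFAT proteins of the calcium-responsive type wait in the cytoplasm until the phosphatase calcineurin removes their phosphates, and Nfatc1 is the factor that RANK ligand induces to start the osteoclast programme. Nfat5 is the family member that responds to osmotic stress and not to calcineurin. Both families are controlled to a large extent at the protein level, which RNA values do not show.

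Total estimated counts ran from 53188659 to 55255365 in WT and from 63607276 to 70059042 in KO libraries. Pebp1 stood at 3560 to 4311 counts in the WT libraries and at 0 in all 3 KO libraries, so each library matched its genotype label. The macrophage genes Csf1r (296 to 397 FPKM over the 6 libraries) and Adgre1 (282 to 391 FPKM) were abundant in both genotypes. Of the 9 macrophage markers, all tested, 3 were higher (Csf1r and Adgre1 among them) and 4 lower in KO, and 4 were higher and 1 lower with the length and GC correction described below. Markers of stromal cells were present as well, with a summed level over 8 genes of 899 to 997 FPKM in WT and 872 to 995 in KO. T and NK cell markers, which would mark a T cell source of Nfatc2, summed to 0.164 to 0.414 FPKM in WT and 0.323 to 0.577 in KO over the 4 of 7 genes in the table. The summed level of 9 neutrophil markers was 67.8 to 154 FPKM in WT and 2.98 to 3.29 in KO. In bulk RNA, fewer cells of a type and less RNA per cell cannot be told apart.

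Of the 8 factors, 5 were higher in KO and 0 lower by the quasi-likelihood test of edgeR on the estimated counts, at an adjusted p under 0.05: Mitf in the MiT family and all 4 NFAT members. Over all tested genes 20.3% were called higher and 19.4% lower. The 3 other MiT genes, Tfe3, Tfeb and Tfec, did not pass. In FPKM, 7 of the 8 factors were higher in every KO than in every WT library, against 32.4% of all tested genes (19.1% were lower in every KO library, so that 51.5% did not overlap). Transcript length moved with these results: in KO, long transcripts were higher and short ones lower, and the calls of Nfat5, Nfatc3 and Nfatc1 depended on how length was treated (below). By limma on log2(FPKM + 1), 23.8% of all tested genes were higher and 14.1% lower (37.9% in all). The plot of levels by library shows the 8 genes side by side.

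**Figure D1:**
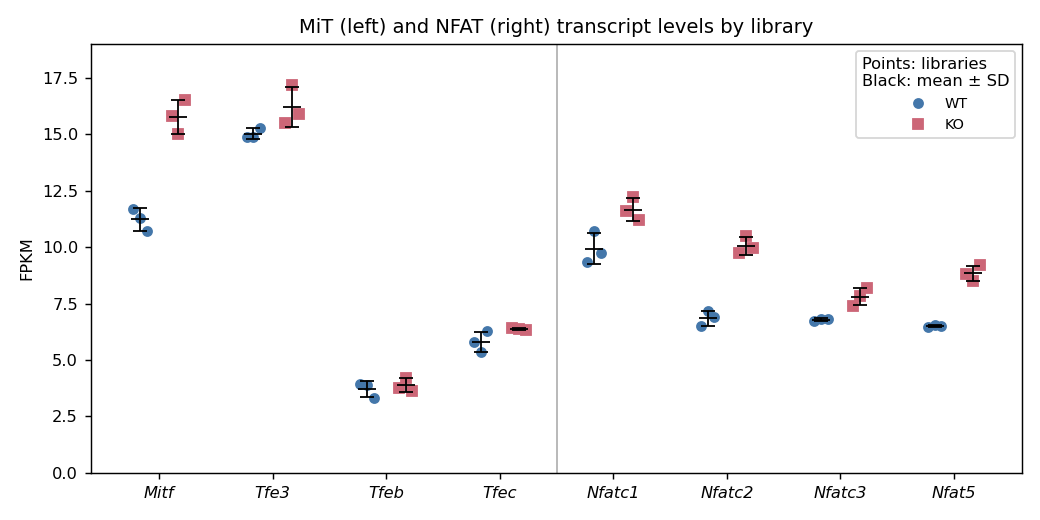
FPKM (vertical axis) of the 4 MiT genes and the 4 NFAT genes in each library, with WT as circles, KO as squares, and the mean ± SD of 3 libraries in black. Mitf, Nfatc2 and Nfat5 stand clear of their WT range in KO, while the Tfeb groups overlap.

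Mitf, the family's name-giving member and a factor that macrophages and osteoclasts share with melanocytes and mast cells, changed most in its family. Its level was 11.7, 11.3 and 10.7 FPKM in WT libraries 1 to 3 and 15.8, 15.0 and 16.5 FPKM in KO libraries 1 to 3. Every KO library was above every WT library, and the gap between the groups was wider than the range within either. From 11.2 ± 0.465 FPKM (SD, n = 3) in WT to 15.7 ± 0.736 in KO, the log2 fold change was 0.44 ± 0.05 (approximate SE), a 1.35-fold rise (edgeR, adjusted p = 4.78e-05). The fold change comes from the fit with its own scaling of the libraries and differs slightly from the ratio of the FPKM means. Mast cell and basophil markers, which would mark another source of Mitf, summed to 1.87 to 2.43 FPKM in WT and 1.50 to 1.76 in KO over the 3 of 6 genes in the table.

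Tfe3, which shares much of the work of Mitf in osteoclasts, had the highest level of the 8 factors in WT. It stood at 14.9, 14.9 and 15.3 FPKM in WT and at 15.5, 17.2 and 15.9 FPKM in KO. The groups did not overlap, but the lowest KO library lay just above the highest WT library. The log2 fold change was 0.05 ± 0.05, with an approximate 95% interval from -0.05 to 0.15 (edgeR, adjusted p = 0.403). Tfec, a MiT member restricted largely to macrophages, had 5.78, 5.36 and 6.27 FPKM in WT, against 6.44, 6.39 and 6.34 in KO. Its KO libraries lay close together above a WT group that was more spread. Its log2 fold change was 0.08 ± 0.07, with an interval from -0.07 to 0.23 (adjusted p = 0.361).

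Tfeb, the lysosomal regulator, was the least abundant of the 8 in both genotypes. Its values of 3.92, 3.91 and 3.31 FPKM in WT and 3.78, 4.22 and 3.63 in KO overlapped, and its log2 fold change of 0.01 ± 0.09 had an interval from -0.18 to 0.19 (edgeR, adjusted p = 0.958). The intervals of Tfe3, Tfec and Tfeb all end below 0.44, the log2 fold change of Mitf.

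Nfatc1, the factor that RANK ligand induces in osteoclast precursors, was already expressed in these M-CSF cultures. It stood at 9.34, 10.7 and 9.76 FPKM in WT and at 11.6, 12.2 and 11.2 in KO. The lowest KO library was above the highest WT library by less than the range within either group. The rise was small, from 9.93 ± 0.697 to 11.7 ± 0.524 FPKM (1.13-fold, log2 fold change 0.18 ± 0.05, edgeR, adjusted p = 0.0228). The call was lost when WT library 1, WT library 3, KO library 1 or KO library 2 was left out (log2 fold changes 0.13 to 0.17, edgeR, adjusted p from 0.0667 to 0.0891). The antisense gene Gm50211, which overlaps Nfatc1 on the other strand, was at 0.0112 FPKM in WT and 0.0647 in KO.

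Nfatc2, a calcium-responsive member best known from T cells, changed most of all 8 factors. It stood at 6.50, 7.15 and 6.89 FPKM in WT and at 9.72, 10.5 and 9.95 in KO. The groups were far apart relative to their spread. The rise was 1.41-fold (log2 fold change 0.50 ± 0.05, edgeR, adjusted p = 1.40e-05).

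Nfat5, the osmotic member, was steady within each genotype. Its values were 6.48, 6.56 and 6.51 FPKM in WT and 8.81, 8.50 and 9.19 in KO. All KO libraries were above all WT libraries, and the fold change was 1.31 (log2 fold change 0.39 ± 0.04, edgeR, adjusted p = 4.84e-05). Nfatc3, a calcium-responsive member, moved least of the NFAT genes, from 6.72, 6.83 and 6.82 FPKM in WT to 7.40, 7.85 and 8.18 in KO. Its groups did not overlap, and its log2 fold change was 0.15 ± 0.04 (1.11-fold, adjusted p = 0.0173), a call lost without WT library 1 (0.14, adjusted p = 0.0510) or KO library 3 (0.12, adjusted p = 0.0578). Nfatc4, the NFAT gene that is not among the 8, had WT values of 2.72, 2.99 and 3.08 FPKM and KO values of 2.62, 2.63 and 2.63. It was the lowest NFAT gene in both genotypes and fell (log2 fold change -0.21 ± 0.08, adjusted p = 0.0483), a call that was lost in limma on log2(FPKM + 1), with the length and GC correction, and when any library but WT library 1 was left out.

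Transcript length bears on these calls, because the fold changes of all genes rose with the length of the longest annotated transcript. In 10 bins of equal size by length, the median log2 fold change was -0.32 for the shortest genes and 0.20 for the longest, against -0.01 over all of them. Nfat5 (13443 bp) and Nfatc2 (6828 bp) lie in the longest bin, where 58.5% of genes were called higher. Mitf (4881 bp) and Nfatc1 (4797 bp) lie in a bin with a median of 0.07 and 31.0% called higher. Tfe3 (6328 bp) and Nfatc3 (5984 bp) lie in one with a median of 0.13 and 41.9% called higher. The changes of Mitf and Nfatc2 were well above the median of their bin, that of Nfatc3 was close to it and that of Tfe3 was below it. The longest annotated transcript of a gene may overstate the length in use, and whether this bears on the corrected values was not tested.

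**Figure D2:**
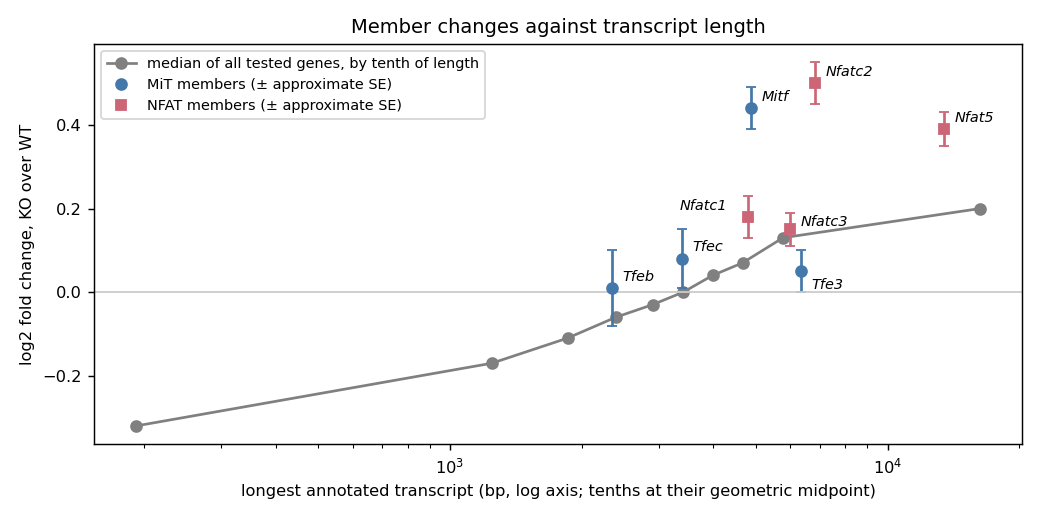
Log2 fold change, KO over WT, against the length of the longest annotated transcript (log axis). Grey points are the medians of all tested genes in 10 bins of length, from -0.32 to 0.20, and the coloured points are the 8 factors with their approximate SE. Mitf, Nfatc2 and Nfat5 lie above the grey line, Nfatc3 on it and Tfe3 under it.

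With a correction of each library for its trend on length and GC content, 3 of the 8 factors were called higher, against 16.6% of all tested genes (14.8% were lower, 31.4% in all). They were Nfatc2 (log2 fold change 0.40 ± 0.03, adjusted p = 7.25e-06), Mitf (0.30 ± 0.04, adjusted p = 1.36e-04) and Nfatc1 (0.16 ± 0.04, adjusted p = 0.0191). Nfat5 was then at 0.04 ± 0.04 (adjusted p = 0.417) and Nfatc3 at 0.00 ± 0.03 (adjusted p = 0.977), and Tfe3 and Tfec turned to -0.04 and -0.03. A second correction used the length implied by the ratio of count to FPKM in the table, which reflects the isoforms present, and no GC content. By it Mitf (0.37, adjusted p = 1.50e-04), Nfatc2 (0.35, adjusted p = 1.90e-04) and Nfat5 (0.12, adjusted p = 0.0346) were higher, against 17.5% of all tested genes (15.5% were lower, 33.0% in all), while Nfatc1 (0.09, adjusted p = 0.247) and Nfatc3 (-0.03, adjusted p = 0.580) were not past the threshold. Mitf and Nfatc2 were thus the members called by all 3 fits. What gave rise to the length trend was not tested.

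**Figure D3:**
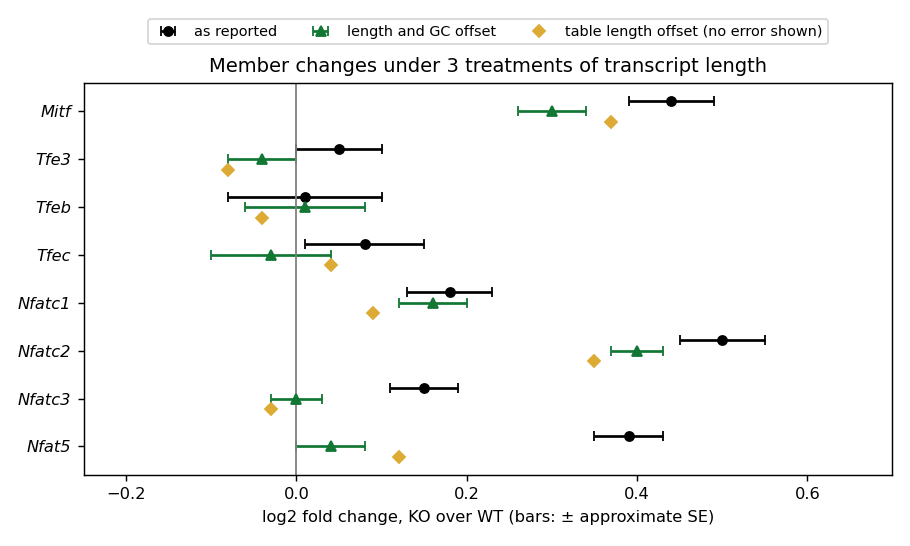
Log2 fold change, KO over WT (horizontal axis), of each factor without a length correction (circles), with the length and GC correction (triangles) and with the length taken from the table (diamonds), with approximate SE for the first and second. Nfat5 moves from 0.39 to 0.04 and 0.12, while Mitf and Nfatc2 stay at 0.30 or above.

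In the deposited table the MiT genes lie at chr6:97807052-98018707 (Mitf, plus strand), chrX:7762560-7775202 (Tfe3, plus), chr17:47737030-47792419 (Tfeb, plus) and chr6:16833373-16898441 (Tfec, minus). The NFAT genes lie at chr18:80606205-80713071 (Nfatc1, minus), chr2:168476410-168601632 (Nfatc2, minus), chr8:106058840-106128042 (Nfatc3, plus) and chr8:107293470-107379517 (Nfat5, plus). The build was taken to be GRCm38 because 24695 of the 27458 genes had coordinates identical to those of GENCODE M21. The coordinates of Mitf, Nfatc2 and Nfatc3 were not identical to it. Each value covers the exons of the whole gene.

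The order of the levels changed little between the genotypes. In WT it ran from Tfe3 (15.0 FPKM) through Mitf, Nfatc1, Nfatc2, Nfatc3, Nfat5 and Tfec to Tfeb (3.71 FPKM), and only the library ranges of Nfatc2 and Nfatc3 overlapped between neighbours. In KO the ranges of Tfe3 (15.5 to 17.2 FPKM) and Mitf (15.0 to 16.5 FPKM) overlapped, and Nfat5 stood above Nfatc3. By mean level over the 6 libraries, Tfe3 exceeded 76.5% and Mitf 72.8% of the tested genes, Nfatc1 66.7%, and Tfeb 33.3%.

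Summed per family, MiT transcripts came to 36.3, 35.4 and 35.6 FPKM in WT and 41.4, 42.8 and 42.3 in KO, and NFAT transcripts to 29.1, 31.2 and 30.0 FPKM in WT and 37.6, 39.0 and 38.5 in KO. Both sums were higher in every KO library, by 6.42 and 8.27 FPKM (two-sided exact permutation test, p = 0.10 for each, the smallest that 3 against 3 libraries allow). The sums and shares rest on FPKM without a length correction and carry the length trend. With the length and GC correction Nfatc3 and Nfat5 were at log2 fold changes of 0.00 and 0.04. With the table's lengths they were at -0.03 and 0.12, and Nfat5 was still called. Mitf made up 32.2, 31.8 and 30.1% of the MiT sum in WT and 38.0, 35.0 and 39.0% in KO. The share of Tfe3 was 42.0 ± 0.928% in WT and 38.3 ± 1.61% in KO (n = 3), without overlap. Nfatc2 held 22.4, 22.9 and 23.0% of the NFAT sum in WT and 25.9, 26.8 and 25.9% in KO, whereas the share of Nfatc1 was lower in all KO libraries (33.0 ± 1.12% and 30.4 ± 1.23%), although its own level was higher. The share of Nfatc3 was also lower in every KO library, 22.6 ± 0.657% in WT and 20.3 ± 0.812% in KO. Each of these 5 shares had an exact permutation p of 0.10 (adjusted over the 8 members, 0.160), the smallest possible, so no share could pass a threshold of 0.05.

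**Figure D4:**
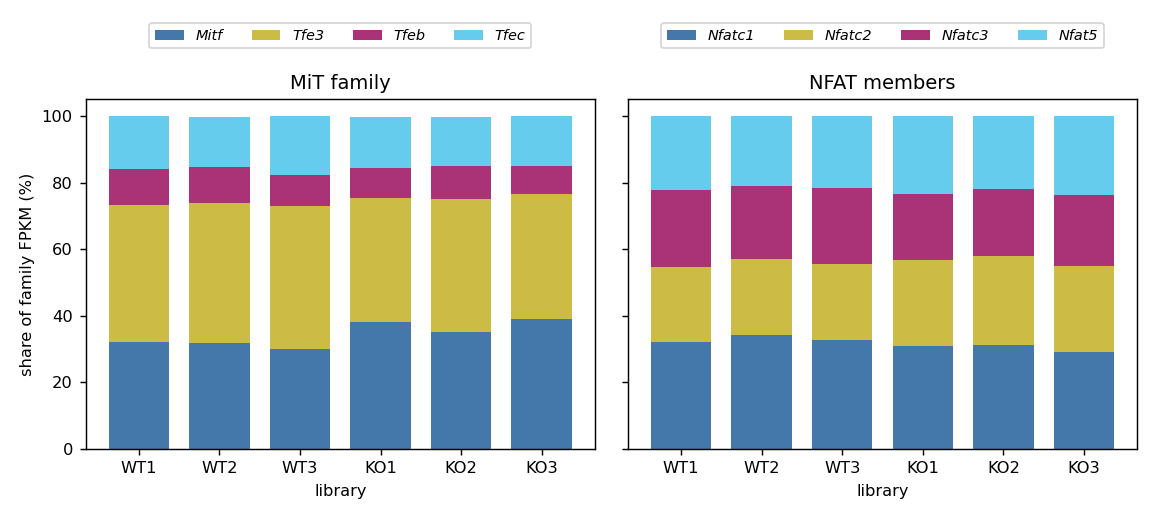
Share of the family's summed FPKM (vertical axis, %) held by each MiT gene (left) and each NFAT gene (right) in the 6 libraries. The Mitf segment spans 30.1 to 32.2% in WT and 35.0 to 39.0% in KO, and the Nfatc2 segment 22.4 to 23.0% and 25.9 to 26.8%.

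Across the 6 libraries, the log2 CPM (counts scaled to the library size) of Mitf followed those of Nfat5 (Pearson r = 0.99) and Nfatc2 (0.92), and Tfeb followed none of the other 7 above 0.28. These values describe 6 libraries that share 2 genotypes and a trend on length, so any pair of genes that differ between the genotypes correlates. Among 6727 other genes of at least 5 FPKM, those most like Mitf were Tlr8, a Toll-like receptor of the endosome, Mib1, a ubiquitin ligase of Notch signalling, and Trp53inp1, a p53-induced protein of autophagy (each r = 0.999), and 658 genes exceeded 0.95. Nfatc1 had 30 genes above 0.95, led by Topors (0.994), Hadha (0.983) and Arhgap25 (0.981).

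The start regions of the factors whose calls were largest, and of a target gene of each family, are shown to place the binding motifs of the 2 families. RefSeq promoter windows of GRCm38.p6 held 7 of the 8 members by symbol. Motifs were searched on both strands in the 250 bases before each start: the NFAT core GGAAA, the palindromic E-box CACGTG, the M-box TCATGTG of MiT factors, and the AP-1 site TGANTCA, none of which contains another. They were present in 55.6%, 6.02%, 3.25% and 6.75% of the 32851 windows of that length in the table. Each sequence below runs 5′ to 3′ on the strand of the gene, from 250 to 26 bases before the start, in lower case with motif matches in capitals (TTTCC and CACATGA are matches on the other strand).
Mitf, start 1 of 3 listed, plus strand, chr6:97806808-97807032: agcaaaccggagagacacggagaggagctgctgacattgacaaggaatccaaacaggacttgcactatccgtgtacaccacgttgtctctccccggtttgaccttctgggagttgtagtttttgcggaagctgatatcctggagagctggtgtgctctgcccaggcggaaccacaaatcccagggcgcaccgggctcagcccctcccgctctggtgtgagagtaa
Nfatc2, start 1 of 2 listed, minus strand, chr2:168601683-168601907: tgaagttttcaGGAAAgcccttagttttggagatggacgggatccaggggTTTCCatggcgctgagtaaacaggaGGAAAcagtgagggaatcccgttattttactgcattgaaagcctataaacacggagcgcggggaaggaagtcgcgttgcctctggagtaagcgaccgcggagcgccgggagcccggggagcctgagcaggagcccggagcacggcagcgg
Nfat5, single listed start, plus strand, chr8:107293220-107293444: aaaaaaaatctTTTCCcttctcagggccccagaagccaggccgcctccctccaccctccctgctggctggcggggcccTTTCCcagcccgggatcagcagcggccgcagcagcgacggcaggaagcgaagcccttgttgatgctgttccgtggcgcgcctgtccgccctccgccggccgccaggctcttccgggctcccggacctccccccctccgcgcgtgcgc
Acp5, start 3 of 3 listed, minus strand, chr9:22130624-22130848: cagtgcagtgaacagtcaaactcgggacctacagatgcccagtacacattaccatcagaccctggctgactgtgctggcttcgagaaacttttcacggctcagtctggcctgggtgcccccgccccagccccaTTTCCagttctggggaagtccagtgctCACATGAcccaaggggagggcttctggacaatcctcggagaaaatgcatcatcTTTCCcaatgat
Rcan1, start 2 of 2 listed, minus strand, chr16:92400104-92400328: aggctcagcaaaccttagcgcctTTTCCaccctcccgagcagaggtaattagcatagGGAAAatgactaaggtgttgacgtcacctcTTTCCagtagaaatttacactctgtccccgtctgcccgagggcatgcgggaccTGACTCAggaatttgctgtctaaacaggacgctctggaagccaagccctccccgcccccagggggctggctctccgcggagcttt

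The Nfatc2 window held 3 NFAT cores and the Nfat5 window 2, the Mitf window none of the motifs searched. Starts 2 and 3 of Mitf held 1 NFAT core each. The M-box of Acp5 begins 90 bases before that start, between a pair of NFAT cores at 117 and 37 bases. The Rcan1 window held 3 NFAT cores and 1 AP-1 site. The windows shown for Acp5 and Rcan1 were those with the most matches: starts 1 and 2 of Acp5 held 1 NFAT core each and no M-box, start 1 of Rcan1 held 1 palindromic E-box and no NFAT core, and the single start of Ctsk held none of the motifs. A match is a stretch of letters and shows no binding, and the deposited values are per gene and cannot be assigned to one start.

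Osteoclast genes that Mitf or Nfatc1 are known to drive went both ways. Of 14 listed, 10 were tested, of which 3 passed as higher and 4 as lower (39.7% of all tested genes were called in either direction). Their median log2 fold change was 0.01. Acp5, which encodes the osteoclast acid phosphatase TRAP, was at 20.1, 20.6 and 16.0 FPKM in WT and at 5.73, 5.41 and 4.46 in KO, far below every WT library (log2 fold change -1.91 ± 0.12, 3.76-fold lower, edgeR, adjusted p = 6.55e-07). Ctsk, the collagen-degrading cathepsin K, was at 22.0, 22.5 and 21.9 FPKM in WT and 12.7, 12.8 and 12.8 in KO (1.80-fold lower). Both genes fell while the factors known to drive them were higher (Mitf, Nfatc1) or not past the threshold (Tfe3). The call of Nfatc1 was lost with the table's lengths (log2 fold change 0.09, edgeR, adjusted p = 0.247) and with some libraries left out.

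Mmp9, the gelatinase of osteoclasts and neutrophils, fell 4.27-fold, from 16.5 ± 1.48 FPKM in WT to 3.53, 4.74 and 3.73 FPKM in KO. Of the 9 neutrophil markers, all 7 that were tested fell beside it (median log2 fold change -5.20), and their part in the fall of Mmp9 was not tested. Atp6v0d2, a subunit of the vacuolar proton pump that takes part in osteoclast fusion, rose from 14.9, 15.3 and 13.5 FPKM to 25.4, 23.3 and 24.2 (1.61-fold, adjusted p = 9.80e-06). Itgb3, the integrin beta chain of osteoclasts, rose by 0.47 on the log2 scale, and Ostm1, a partner of the lysosomal chloride channel, by 0.20, a call lost with the table's lengths (0.11, adjusted p = 0.0622). Gpnmb, a MiT target of lysosomes, fell from 474 ± 6.91 to 407 ± 5.79 FPKM. The calls of Acp5, Ctsk, Mmp9, Atp6v0d2 and Gpnmb held with both length corrections.

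Lysosomal genes of the CLEAR network, whose E-boxes MiT factors bind, were called in both directions. Of 49 tested, 11 were higher and 12 lower (median log2 fold change -0.05), against 20.3% higher and 19.4% lower over all tested genes. Their summed level over the list spanned 13206 to 13520.5 FPKM in WT and 12884 to 13573 in KO. The largest terms of this sum were Ctsd (mean 4622 FPKM in WT and 4250.1 in KO), Psap (2968 and 2985) and Ctsb (1852 and 1914). The sum therefore says little about the less abundant genes of the list. The proton pump subunits Atp6v0c and Atp6v1c1 fell 1.24-fold and 1.19-fold. With the length and GC correction 13 were higher and 9 lower, and by limma on log2(FPKM + 1) 16 were higher and 5 lower, where the whole table also had more higher than lower genes (23.8% and 14.1%).

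Among genes that control MiT factors through mTOR and the Rag GTPases at the lysosome, 8 of 22 tested were higher and 4 lower, against 20.3% and 19.4% of all tested genes. Fnip1 and Fnip2 are partners of folliculin in the control of MiT factors through mTOR and the Rag GTPases. Fnip1 rose from 12.8 ± 0.588 to 17.7 ± 0.997 FPKM (adjusted p = 1.00e-04) and Fnip2 from 24.8 ± 0.173 to 31.9 ± 0.966 FPKM (adjusted p = 1.73e-04). Their log2 fold changes of 0.41 and 0.31 were 0.13 and 0.17 with the length and GC correction and 0.33 and 0.19 with the table's lengths, still called. Rragc, which encodes a Rag GTPase, was at 84.4, 84.5 and 85.5 FPKM in WT and 105, 97.8 and 102 in KO. Folliculin itself (Flcn) was higher at a log2 fold change of 0.18. Fnip2, Rragc and Flcn are also targets of MiT factors and stand in the CLEAR list too. Rragd, another such target, averaged 4.02 ± 0.118 FPKM in WT against 4.32 ± 0.247 in KO and did not pass (adjusted p = 0.599). Slc38a9, the amino acid sensor of the lysosome, rose 1.25-fold, a call lost with both length corrections. The 4 genes that fell were Lamtor1, Lamtor2 and Lamtor4, subunits of the Ragulator complex, and Rraga. With the length and GC correction none of these was lower, Lamtor2 was higher (0.18, adjusted p = 0.0403), and the list had 7 higher and 0 lower, against 16.6% and 14.8% of all tested genes. With the table's lengths Lamtor1 was still lower (-0.17, adjusted p = 0.0177), while Lamtor2 (0.05, adjusted p = 0.569), Lamtor4 and Rraga were not past the threshold.

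Genes for 3 calcineurin subunits rose. Of 26 tested genes that control NFAT through calcium and calcineurin, 11 were higher and 4 lower (median log2 fold change 0.12), against 20.3% and 19.4% of all tested genes. The correction for length and GC left 6 higher and 4 lower, against 16.6% and 14.8%, and limma on log2(FPKM + 1) gave 10 higher and 1 lower. Without WT library 2 or KO library 1, 8 genes of this list passed in all. Ppp3ca, the main catalytic subunit of calcineurin, was at 13.4, 12.9 and 13.2 FPKM in WT and 17.9, 18.1 and 17.3 in KO (log2 fold change 0.38, adjusted p = 4.19e-05). Ppp3cb, a second catalytic subunit, rose 1.27-fold, and Ppp3r1, the regulatory subunit, rose from 42.2 ± 1.17 to 50.7 ± 1.67 FPKM. These 3 calls held with both length corrections, Ppp3cb at 0.20 and 0.23 in place of a log2 fold change of 0.35. Ppp3cc, another catalytic subunit, did not pass (log2 fold change 0.14, edgeR, adjusted p = 0.362), nor did it with either length correction. Gsk3b, a kinase that sends NFAT back out of the nucleus, rose 1.32-fold, and its log2 fold change of 0.40 was 0.19 with the length and GC correction and 0.26 with the table's lengths, still called.

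The calcineurin inhibitors of the Rcan family, themselves NFAT targets in the case of Rcan1, split. Rcan1 fell from 6.98, 7.35 and 7.13 FPKM to 6.21, 5.76 and 6.18 (log2 fold change -0.30 ± 0.07, adjusted p = 0.00577), a call lost with the length and GC correction (-0.18, adjusted p = 0.0632) and kept with the table's lengths (-0.23, adjusted p = 0.0234). Rcan2 rose from 4.96 ± 0.312 to 6.44 ± 0.271 FPKM (1.25-fold, adjusted p = 0.00303).

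Receptors and kinases through which M-CSF and RANK reach the factors were higher in 6 of 12 cases and lower in 0, against 20.3% and 19.4% of all tested genes. With the length and GC correction 5 were higher and 0 lower, against 16.6% and 14.8%. Without it, their median log2 fold change was 0.17. Csf1r, the M-CSF receptor, rose 1.23-fold and Tnfrsf11a, which encodes RANK, was at 8.27, 8.23 and 8.40 FPKM in WT and 11.1, 11.0 and 10.8 in KO (adjusted p = 1.09e-04). Mapk14, the p38 kinase that phosphorylates Mitf in osteoclast precursors, rose 1.14-fold, as did Tab2, and Map3k7 rose 1.13-fold, a call lost with both length corrections. Of 9 tested genes of the ITAM adaptors that raise calcium for Nfatc1, 1 was higher and 2 were lower, and 1 gene in all passed without WT library 1, WT library 3, KO library 1 or KO library 3. Tyrobp, the adaptor DAP12, fell from 337 ± 31.5 to 243 ± 9.96 FPKM (log2 fold change -0.53), and with the length and GC correction its change was -0.06 (adjusted p = 0.343). The other adaptor, Fcer1g, turned from -0.13 (adjusted p = 0.0309) to 0.32 (adjusted p = 4.27e-05) with that correction.

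Partner factors of Nfatc1 and Mitf in osteoclasts were called in both directions, 5 of 21 tested higher and 6 lower, near the shares of 20.3% and 19.4% over all tested genes. Fos, the AP-1 subunit required for the induction of Nfatc1, fell from 5.36, 4.76 and 5.01 FPKM to 3.03, 3.57 and 3.67 (1.53-fold lower, adjusted p = 7.88e-04), and Junb fell 1.33-fold (log2 fold change -0.42, and -0.25 with the table's lengths). Jund rose 1.35-fold, and Mef2c, a factor of the MADS family, was at 4.79, 4.95 and 4.51 FPKM in WT and 8.60, 8.01 and 9.24 in KO (1.75-fold, adjusted p = 1.93e-06). Creb1 rose 1.32-fold, a change of 0.07 in log2 with the length and GC correction (adjusted p = 0.229) and of 0.19 with the table's lengths (adjusted p = 0.00455). Spi1, the PU.1 factor that partners both Mitf and Nfatc1, did not pass (log2 fold change -0.10).

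Of 7 tested repressors of Nfatc1 or of osteoclast genes, 1 was higher and 1 lower, but 0 passed without WT library 3, and 1 without WT library 1, WT library 2 or KO library 2. Bcl6, a transcriptional repressor of osteoclast genes, fell from 5.12 ± 0.212 to 4.48 ± 0.236 FPKM (adjusted p = 0.0115). Irf8, the repressor that RANK ligand removes, averaged 17.1 ± 0.589 FPKM in WT against 18.5 ± 0.437 in KO and did not pass (adjusted p = 0.332).

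Of 8 tested osmotic targets of Nfat5, 2 were higher and 2 lower, near the shares of 20.3% and 19.4% over all tested genes, and with the length and GC correction 1 was higher and 3 lower. Slc5a3, the inositol transporter, was at 2.65, 2.59 and 2.52 FPKM in WT and 5.14, 4.87 and 5.76 in KO (1.96-fold, adjusted p = 1.39e-06), and held with both length corrections (log2 fold changes 0.63 and 0.81). Slc6a6, the taurine transporter, rose 1.10-fold, which the length corrections reduced to 0.05 and 0.03 in log2. Akr1b3, the aldose reductase that makes sorbitol, fell from 14.3 ± 0.358 to 12.6 ± 0.586 FPKM (adjusted p = 0.00136), and the kinase gene Sgk1 fell 1.25-fold.

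**Figure D5:**
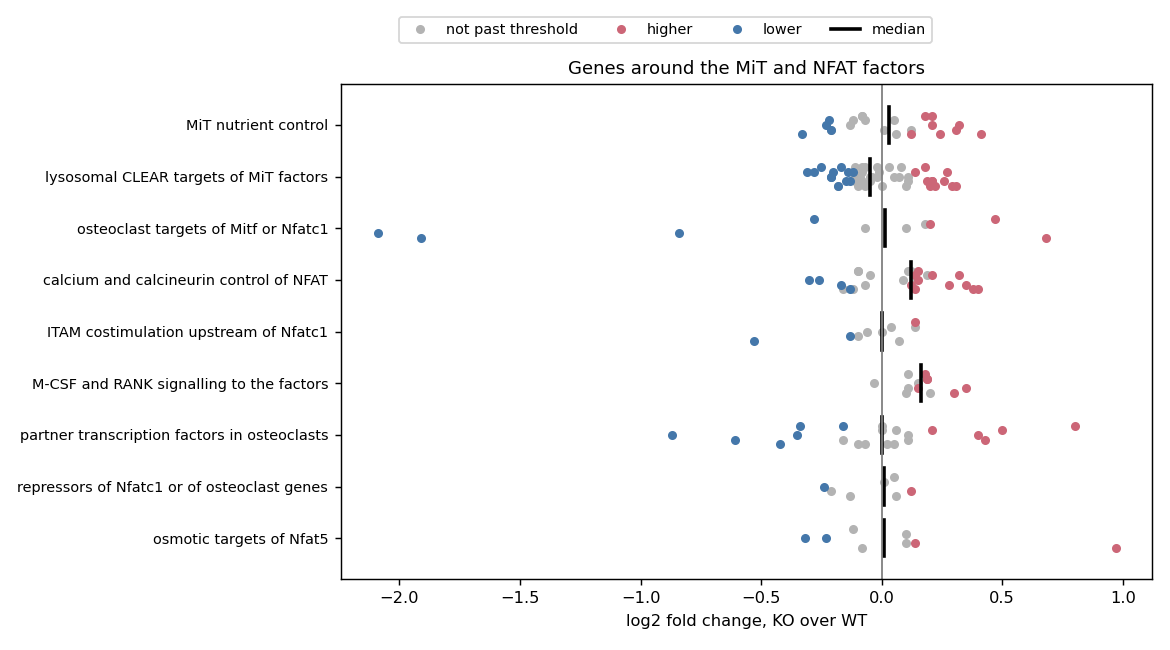
Log2 fold change, KO over WT (horizontal axis), of each tested gene in the 9 lists around the factors, coloured by its call in edgeR without a length correction, with the list's median as a black bar. The medians lie between -0.05 and 0.17, and Mmp9, Acp5 and Ctsk stand far to the left among the osteoclast targets.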

How the data were processed

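RNA of 6 libraries, 3 WT and 3 KO, was analysed. Per the labels' protocols, oligo(dT)-selected RNA went into libraries with dUTP second-strand marking. The submitters' processing notes name StringTie 1.3.4d, HISAT2 2.0.4 and cutadapt 1.9 without saying what each did. The genome build and the use of strand in counting were not given in the sources used here. The authors deposited FPKM and estimated counts, rounded to whole numbers, for each gene and library. Among low deposited estimated counts 4 was found 5769 times, against 3204 for 3 and 2041 for 5, so about 4 counts stand for 1 fragment. Gene IDs matched GENCODE M21 (GRCm38) for 27382 of 27458 genes.

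KO was compared with WT by the edgeR 4.0.16 quasi-likelihood test (R 4.3.3) with TMM scaling, over the 11636 genes whose mean reached 1 FPKM, two-sided, with Benjamini-Hochberg adjustment over all of them. The approximate SE was worked back from the log2 fold change and its F statistic. In the length and GC correction, a loess trend (span 0.3) of each library on the length and GC content of the longest GENCODE transcript entered as an offset. The correction with the table's own lengths, the joint use of correction and block, and the correction with libraries left out were chosen after seeing the data. Family sums and shares were compared by exact permutation tests (scipy 1.17.1). Alternatives were limma 3.58.1 on log2(FPKM + 1) and log2(FPKM + 0.1), DESeq2 1.42.0, other filters and scaling, counts divided by 4, the replicate number as a block, and each library left out. The fits were tested on simulated data. The named genes are the 8 members, up to 5 genes of each list by smallest p, and Rcan1, Acp5, Ctsk, Slc5a3, Ppp3ca and Rragd, and for Mitf and Nfatc1 the 3 genes with the highest correlation. Flcn, Itgb3, Ostm1, Lamtor1, Lamtor2, Lamtor4, Rraga, Spi1, Ppp3cc, Ctsd, Psap and Ctsb were added after their values were seen. The members and lists were chosen with earlier results of these data known. Pseudogenes were matched to member transcripts with minimap2 2.31: 1 matches Nfat5 (Gm48674) and 1 Tfec (Gm2638), so the reads of these 2 members are uncertain. Some genes that the naming rule selects are not reported here.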

Additional observations from a re-analysis of the deposited data

How the results depend on the processing

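Mitf and Nfatc2 were called higher under all 23 alternatives run, at log2 fold changes of 0.27 to 0.49 and 0.35 to 0.55, and Mitf was the 1 MiT member called in each. With the length and GC correction Tfe3 was at -0.04, Tfec at -0.03, Nfatc3 at 0.00 and Nfat5 at 0.04, and 2 NFAT members were called. With that correction and the replicate block these values were again -0.04, -0.03, 0.00, 0.04 and 2. With the table's lengths Tfe3 was at -0.08, Tfeb at -0.04, Nfatc1 at 0.09 and Nfatc3 at -0.03, and 2 NFAT members were called. Without a filter on low values Nfatc1 was at 0.20 and no longer called. With 1 library left out, Tfeb lay between -0.06 and 0.06, Nfatc1 between 0.13 and 0.23 and Nfatc3 between 0.12 and 0.17, and 2 to 4 NFAT members were called, the lowest number when WT library 1 was left out. With 1 library left out and the length and GC correction, Tfe3 was between -0.07 and -0.02 (-0.05 without WT library 2), Tfeb at -0.05 without WT library 3 and at 0.00 without KO library 2, and Tfec between -0.08 and 0.05. Nfatc1 was then no longer called without WT library 1 (0.13), WT library 3 (0.14), KO library 1 (0.14) or KO library 2 (0.15), Nfatc3 lay between -0.01 and 0.02 and Nfat5 between 0.02 and 0.06 (0.05 without WT library 1 and 0.03 without WT library 2 or 3), and 1 or 2 NFAT members were called. The cause of these changes was not tested.

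Called genes of the list on nutrient control of MiT factors came to 7 with the length and GC correction, against 12. With 1 library left out, 8 to 12 calcineurin genes, 1 to 4 ITAM genes and 0 to 2 repressors were called, and limma on log2(FPKM + 1) called 1 repressor. Nfatc4 was not called (0) in limma, with the length and GC correction or with the replicate block, and with 1 library left out in 5 of 6 cases (0 to 1 called). The deviations of same-numbered libraries from their group means had correlations of 0.023, 0.187 and -0.0379. They were not set against differently numbered libraries, so they cannot settle whether the number marks pairs. The replicate block gave log2 fold changes of 0.43 for Mitf, 0.50 for Nfatc2 and 0.18 for Nfatc1, 2407 higher and 2294 lower genes in all, and among the members and lists it lost the call of Nfatc4. The filter at 5 FPKM removed Tfeb, which has no value there. In limma 62.8% of calls were higher, against 51.2%. Tfeb had the lowest estimated counts of the members, 1130 to 1726 per library, and the largest approximate SE (0.09). Whether the counts set this SE was not tested.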
